A study of Homo sapiens with 12 samples.

Results

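Solute carriers are the genes whose symbols follow the pattern SLC, family number, A, member number. They were followed in LS411N, a human colon cancer cell line, and in LS411N-BR, its derivative that resists BRAF inhibitors. Of 334 such symbols listed for both lines, the 168 with at least 1 TPM (transcripts per 1000000 transcripts) in at least 3 of the 12 libraries are described, and the other 166 lay under that level. The members were thus chosen by their own measured levels, which are given below only as a description. Across all genes listed for both lines, 11674 of 25540 met the same level. The members were sorted by what they carry into mitochondrial carriers (35 genes), amino acid (28), metal (26), ion (20), lipid and vitamin (17), sugar (14), nucleotide (9), organic ion (7), carboxylate (6) and bile acid (3) transporters, with 3 left as other or unknown. The nucleotide class holds both nucleoside carriers and carriers of nucleotide sugars.

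All 4 groups, of 3 libraries each, carried a tetracycline-inducible short hairpin RNA against MUC1 and puromycin resistance. The control groups LS411N without doxycycline and LS411N-BR without doxycycline received 0.1% DMSO, and the knockdown groups received 500 ng/ml doxycycline. No DMSO is listed for the knockdown groups. Both LS411N-BR groups were also kept in 4 µM BRAF inhibitor, so the line and the inhibitor cannot be told apart. None of the groups analysed here combined doxycycline with another hairpin, so the effects of the drug and of the hairpin cannot be told apart either. As listed, DMSO differs between the same groups, so its effect cannot be told apart from theirs. Cells were grown in triplicate, and no source used here says that the cultures were independent, so the p-values measure only the spread between these libraries. The values below are deposited TPM rescaled by the median of ratios, called rescaled TPM. Each gene's value is divided by its geometric mean over the libraries, and the median of these ratios is made the same in every library.

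Solute carriers move small molecules across membranes, either down their gradient or coupled to sodium, protons or another solute. In the gut epithelium, apical members take up sugars, amino acids and ions, while basolateral members pass them to the blood or supply chloride for secretion. Some act only with a partner protein, as the light chains of the SLC7 family do with the heavy chain SLC3A2, and many work inside the cell, in lysosomes, the Golgi apparatus or the inner mitochondrial membrane.

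MUC1, the gene targeted by the hairpin, stood at 5.44, 7.05 and 4.12 rescaled TPM in LS411N without doxycycline and at 0.974, 0.817 and 1.03 with it. In LS411N-BR it stood at 3.88, 3.83 and 4.43 without and 0.593, 0.357 and 0.392 with doxycycline. The groups did not overlap in either line, and the log2 fold changes were -1.73 and -1.80. All 8 colon epithelial markers examined were present in all libraries, and their summed level was 2435 to 2678 rescaled TPM in LS411N without and 3194 to 3421 with doxycycline, and 2773 to 2911 and 3538 to 3657 in LS411N-BR. That sum was thus higher in every library with doxycycline of a line, alongside the transporter genes described below, and its part in their changes was not tested. In RNA from whole cultures, fewer cells of a type and less RNA per cell cannot be told apart. Of 4 immune markers, PTPRC and CD3E stayed at or under 0.0582 rescaled TPM, while LYZ, which intestinal cells also make, ranged from 42.0 to 2795 and CD68 from 7.52 to 63.3. The immune sum, nearly all of it LYZ in LS411N, was 2669 to 2803 in LS411N without and 1414 to 1482 with doxycycline, and 185 to 195 and 104 to 109 in LS411N-BR. PTPRC and CD3E were at 0 in 8 and 10 of the 12 libraries. A list of 6 fibroblast and endothelial markers summed to at most 0.540. Replicates of LS411N without doxycycline spread most, with a median SD over the members of 0.0817 on the log2(rescaled TPM + 1) scale, against 0.0633, 0.0362 and 0.0442 in LS411N with doxycycline and in LS411N-BR without and with it.

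Before any comparison, the solute carriers differed widely in level. The mean over the 12 libraries ranged from 0.752 to 922 rescaled TPM with a median of 9.26, and 6 genes stood at 100 or above, 70 from 10 to under 100, and 92 below 10. The highest was SLC25A5, an exchanger of ADP and ATP in the inner mitochondrial membrane, at 577 ± 40.8 in LS411N without doxycycline and 1216 ± 46.2 in LS411N-BR without doxycycline (mean ± SD, n = 3, as in all values of this form). Its value is uncertain because GENCODE 29 names 9 pseudogene copies of it, between which reads could be split. Next came the mitochondrial phosphate carrier SLC25A3, singled out after its values were seen, at 338 ± 5.23 and 373 ± 4.32 in the same groups. SLC12A2 followed, the sodium, potassium and chloride cotransporter NKCC1 of the basolateral membrane, and then 3 amino acid transporters, SLC7A5 (LAT1), SLC38A2 (SNAT2) and SLC1A5 (ASCT2). The highest members of the other classes were SLC16A1 (carboxylate, the lactate carrier MCT1), SLC30A9 (metal, a zinc carrier of mitochondria), SLC29A1 (nucleotide, the nucleoside carrier ENT1), SLC44A2 (lipid and vitamin, a choline carrier-like protein), SLC50A1 (sugar), SLC10A3 (bile acid family), SLC46A3 (other) and SLC22A5 (organic ion, the carnitine carrier OCTN2).

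At the other end, SLC10A5 and SLC29A4 lay just inside the level rule, and SLC4A4 and SLC12A4 just outside it, with a third-highest deposited TPM of 1.04, 1.06, 0.914 and 0.799. Some of the transporters named whatever their level were under the rule in both lines. The ileal bile acid carrier SLC10A2, the amino acid carrier SLC6A14, the peptide carrier SLC15A1 and the glucose carrier SLC2A3 had group means of at most 0.00504, 0.212, 0.0280 and 0.0574 rescaled TPM, in that order. Without read totals, a value of that size or of 0 cannot be turned into a limit of detection.

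With doxycycline, more solute carriers rose than fell in each line. In LS411N, 44 of the 158 members tested rose and 23 fell at an adjusted p under 0.05 (limma on log2(rescaled TPM + 1), two-sided). That is 27.8% and 14.6% of the members, against 19.3% and 15.6% of all 11250 genes tested. In LS411N-BR, 79 of 164 rose and 43 fell, 48.2% and 26.2%, against 33.5% and 31.0% of all 11322 genes tested. The median log2 fold change over the members was 0.12 in LS411N and 0.10 in LS411N-BR, beside 0.02 and 0.01 over all genes tested. On that scale, which shrinks the changes of low genes, the called members held 4 rises and 3 falls of at least 1.5-fold in LS411N and 9 and 6 in LS411N-BR. As ratios of mean rescaled TPM there were 6 and 3, and 12 and 13. The counts at 1.5-fold were not made over all genes tested, so they describe the members alone and give no comparison with other genes. In LS411N-BR 4 of the members tested, all called, met the level through 1 group alone, with no library of the other at 1 deposited TPM, and so had to differ: SLC26A3, SLC30A4 and SLC25A42 with doxycycline and SLC44A5 without it, a set found after their values were seen.

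The split between rises and falls depended on the scale. With TPM as deposited, 23 members rose and 3 fell in LS411N (background 9.96% and 3.59% of genes), and 110 rose and 17 fell in LS411N-BR (56.1% and 11.1%, or 67.2% in either direction). The median log2 fold change over all genes tested was then 0.08 and 0.18. The factors by which TPM were divided for rescaling were 0.853, 0.865 and 1.10 in LS411N without doxycycline. Deposited TPM of that group thus differ in scale between its libraries, and the part of this in the calls was not tested. Of the 44 rises in LS411N, 21 were also called on the deposited scale. The falls in LS411N that were called on both scales were those of SLC12A2, SLC5A1 and SLC2A12, and every other solute carrier named below as falling in that line has an adjusted p over 0.05 with TPM as deposited. The LS411N rises also depended on single libraries: 26 were called when replicate 2 of LS411N with doxycycline was left out and 29 when its replicate 3 was, against 34 to 55 when any other was.

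The lines shared much of the response. Among 154 members tested in both, 40 were called higher in both lines, 90.9% of the rises in LS411N and 53.3% of those in LS411N-BR. A further 19 were called lower in both, 82.6% and 47.5% of the falls, and 34 were called in neither line. Over all 10935 genes tested in both, 1795 were higher in both, 84.6% and 49.3% of the rises, and 1462 lower in both, 86.3% and 42.6% of the falls. The members that changed in opposite directions were SLC16A3, higher in LS411N and lower in LS411N-BR, and SLC17A5 and SLC6A6, lower in LS411N and higher in LS411N-BR. With TPM as deposited each of the 3 lost its fall (adjusted p = 0.44, 0.35 and 0.17), so none was called in opposite directions on that scale, and the SLC16A3 groups overlapped in LS411N-BR.

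**Figure D1:**
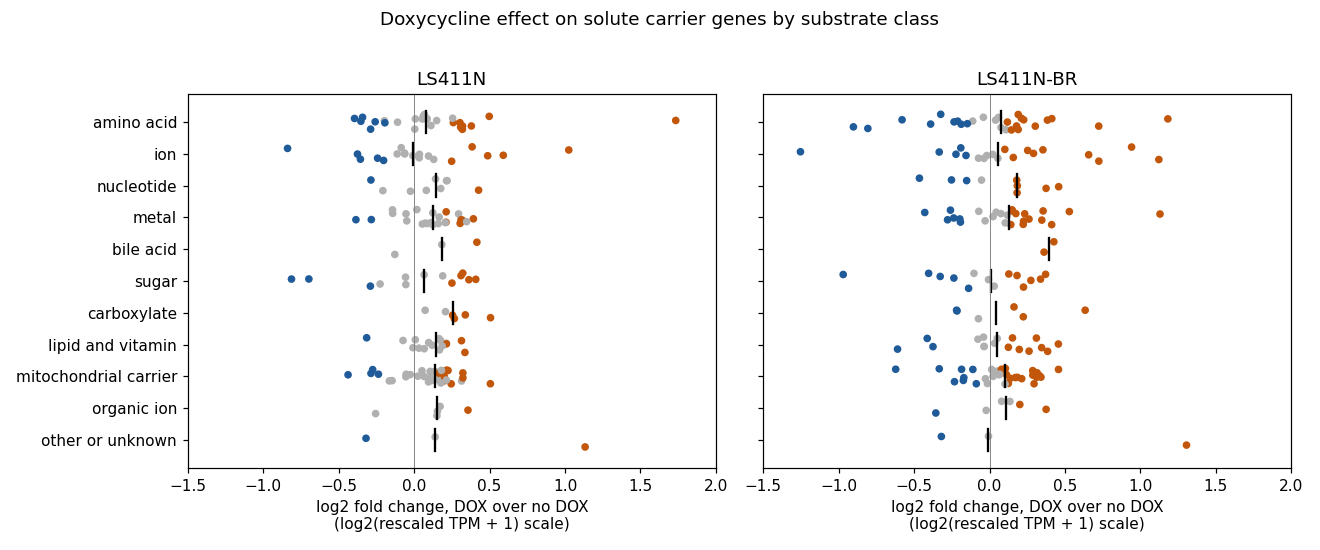
Log2 fold change with doxycycline (x axis, log2(rescaled TPM + 1) scale) of each solute carrier gene tested, by substrate class (y axis), in LS411N (left) and LS411N-BR (right). Each point is 1 gene, orange where it rose and blue where it fell at an adjusted p under 0.05, grey otherwise, and the black bar is the class median. SLC6A20 at 1.73 is the point farthest right in LS411N, and SLC12A2 at -1.25 the point farthest left in LS411N-BR.

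The largest called rise in LS411N, on the log2(rescaled TPM + 1) scale by which changes are ranked throughout, was that of SLC6A20, an apical carrier of proline and related imino acids. It stood at 4.39, 4.96 and 5.92 rescaled TPM without doxycycline and at 19.8, 18.5 and 19.2 with it. In LS411N-BR the values were 18.4, 18.8 and 19.4 and 45.8, 41.9 and 44.5. All libraries with doxycycline lay above all without it within a line, and LS411N with doxycycline reached the level that LS411N-BR had without it. The log2 fold change was 1.73 ± 0.09 SE, adjusted p = 2.3e-06 in LS411N and 1.18 ± 0.04 SE, adjusted p = 1.5e-08 in LS411N-BR. GENCODE 29 places SLC6A20 on chromosome 3 from 45755450 to 45796535, minus strand (GRCh38, as for all gene positions here).

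SLC46A3, a carrier of the lysosomal membrane, had the largest rise in LS411N-BR on that scale. Its values were 1.86, 2.03 and 2.93 and then 6.01, 6.61 and 5.76 rescaled TPM in LS411N, and 8.17, 8.02 and 8.31 and then 22.1, 21.1 and 21.7 in LS411N-BR. The groups were separate in both lines, with log2 fold changes of 1.13 ± 0.11 SE, adjusted p = 0.00014 and 1.31 ± 0.03 SE, adjusted p = 3.0e-09. SLC46A3 is annotated on chromosome 13 from 28700064 to 28718970, minus strand.

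SLC9A2 (NHE2), a sodium and proton exchanger of the apical membrane of gut epithelium, also rose in both lines. It had 7.28, 6.39 and 6.91 and then 14.4, 15.3 and 15.2 rescaled TPM in LS411N. In LS411N-BR it had 10.3, 11.3 and 10.8 and then 17.8, 18.9 and 18.8. The groups did not overlap, and the log2 fold changes were 1.02 ± 0.06 SE, adjusted p = 5.5e-06 and 0.72 ± 0.04 SE, adjusted p = 3.4e-07.

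Among falls, the largest in either line on the log2 scale was that of SLC12A2, which loads chloride into secreting epithelial cells. As a ratio of mean rescaled TPM in LS411N, the falls of SLC2A12 (to 0.498) and SLC5A1 (to 0.540) were larger than that of SLC12A2 (to 0.557). LS411N without doxycycline had 224, 232 and 251 rescaled TPM and with it 124, 129 and 141. LS411N-BR had 247, 265 and 252 without and 106, 105 and 108 with it. The lines were close to each other in level without doxycycline, at a ratio of 1.08, and in both the groups lay well apart. The log2 fold change was -0.84 ± 0.07 SE, adjusted p = 3.3e-05 in LS411N and -1.25 ± 0.03 SE, adjusted p = 5.2e-09 in LS411N-BR. SLC12A2 is annotated on chromosome 5 from 128083766 to 128189688, plus strand.

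SLC5A1 (SGLT1), which couples glucose uptake to sodium at the apical membrane, also fell in both lines. It had 14.8, 14.1 and 15.9 and then 8.12, 8.09 and 7.99 rescaled TPM in LS411N, and 12.2, 11.2 and 11.5 and then 5.61, 5.56 and 5.17 in LS411N-BR. No library with doxycycline reached the lowest without it. The log2 fold changes were -0.81 ± 0.06 SE, adjusted p = 1.7e-05 and -0.97 ± 0.04 SE, adjusted p = 9.6e-08. Its annotation spans chromosome 22 from 32043032 to 32113029, plus strand.

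**Figure D2:**
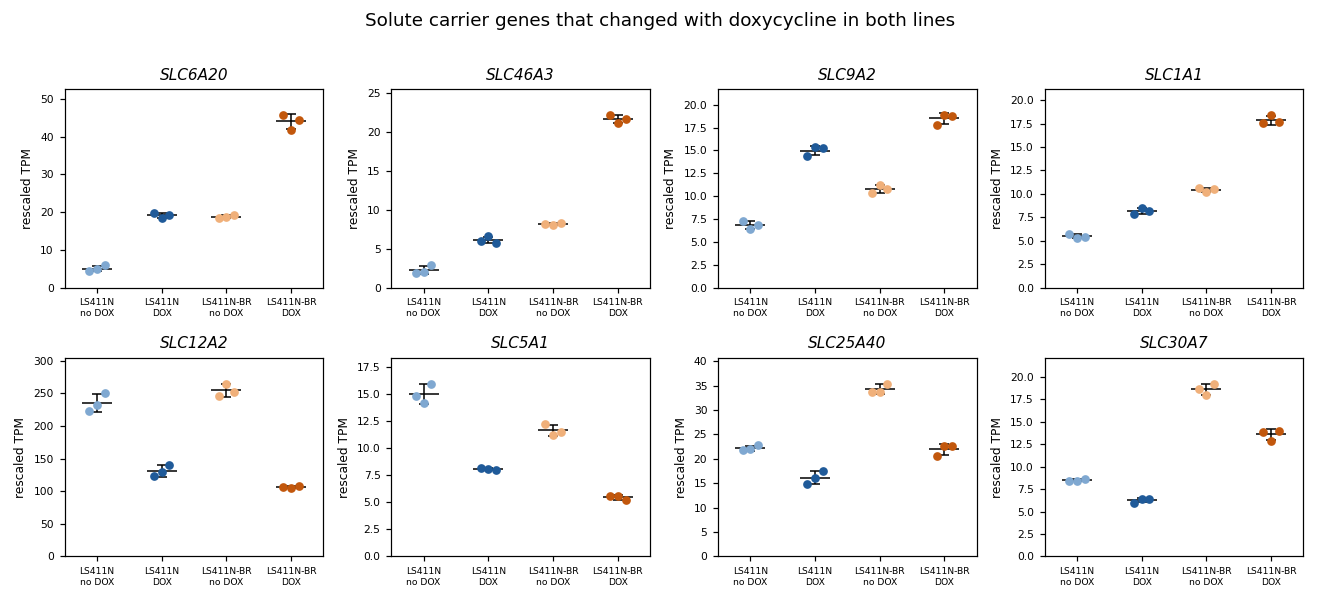
Rescaled TPM (y axis, from 0) of 8 solute carrier genes in the 4 groups (x axis). Each point is 1 library, and the bar and whiskers are the mean ± SD of 3 libraries. SLC6A20, SLC46A3, SLC9A2 and SLC1A1 are higher and SLC12A2, SLC5A1, SLC25A40 and SLC30A7 lower with doxycycline in both lines, with no overlap between the groups of a line.

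The sequence just upstream of the start is shown for 5 genes, the largest shared rises on the log2 scale (SLC6A20, SLC46A3), the largest shared falls (SLC12A2, SLC5A1) and a gene with a large rise in LS411N-BR (SLC40A1), so that their upstream regions can be set side by side. Each line gives the 250 bases before the RefSeq start (GRCh38.p14), 5′ to 3′ on the gene's strand, with motif matches in capitals. The windows are chr3:45796537-45796786 (minus strand) for SLC6A20, chr13:28718971-28719220 (minus strand) for SLC46A3, chr5:128083516-128083765 (plus strand) for SLC12A2, chr22:32043011-32043260 (plus strand) for SLC5A1 and chr2:189580787-189581036 (minus strand) for SLC40A1. For SLC5A1 and SLC40A1 the RefSeq start lies inside the GENCODE gene, so these windows overlap it.
SLC6A20: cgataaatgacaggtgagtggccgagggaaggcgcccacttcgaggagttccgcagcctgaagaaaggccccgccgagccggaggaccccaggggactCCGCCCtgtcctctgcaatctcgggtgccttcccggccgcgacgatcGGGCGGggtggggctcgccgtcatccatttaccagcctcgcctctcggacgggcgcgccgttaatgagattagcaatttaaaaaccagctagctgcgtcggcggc
SLC46A3: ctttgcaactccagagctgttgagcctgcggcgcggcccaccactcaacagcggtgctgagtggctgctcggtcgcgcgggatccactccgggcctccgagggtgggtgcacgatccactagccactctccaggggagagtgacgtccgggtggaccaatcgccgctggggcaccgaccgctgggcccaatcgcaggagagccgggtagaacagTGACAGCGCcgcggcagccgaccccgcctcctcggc
SLC12A2: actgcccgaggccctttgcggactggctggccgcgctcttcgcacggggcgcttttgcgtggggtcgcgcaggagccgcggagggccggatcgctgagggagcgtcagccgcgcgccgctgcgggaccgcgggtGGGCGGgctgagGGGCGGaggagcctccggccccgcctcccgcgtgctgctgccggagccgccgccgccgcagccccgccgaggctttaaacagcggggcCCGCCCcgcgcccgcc
SLC5A1: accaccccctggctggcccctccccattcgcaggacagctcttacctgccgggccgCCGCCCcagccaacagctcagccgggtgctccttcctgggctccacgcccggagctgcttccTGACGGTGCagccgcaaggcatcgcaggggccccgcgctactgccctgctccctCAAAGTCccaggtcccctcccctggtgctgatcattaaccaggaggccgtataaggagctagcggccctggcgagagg
SLC40A1: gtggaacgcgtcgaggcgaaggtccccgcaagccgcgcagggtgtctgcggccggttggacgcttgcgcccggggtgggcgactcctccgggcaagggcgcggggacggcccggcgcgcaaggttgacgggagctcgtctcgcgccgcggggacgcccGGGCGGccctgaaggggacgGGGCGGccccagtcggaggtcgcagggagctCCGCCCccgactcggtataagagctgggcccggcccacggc

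Motifs were searched on both strands: the GC box GGGCGG, the ETS core CCGGAAG, the E-box CACGTG, the AP-1 site TGANTCA, the ATF4 element TGATGNAA, the NRF2 element core TGACNNNGC and the HNF4 site CAAAGTC. None of these words contains another. SLC12A2 and SLC40A1 each hold 3 GC boxes and SLC6A20 holds 2, whose first bases lie 152 and 105 bases before the start. SLC5A1 holds 1 GC box, 1 NRF2 core at 132 and 1 HNF4 word at 78 bases before the start. SLC46A3 holds 1 NRF2 core at 36 bases and none of the other words. A promoter entry was matched for 134 of the 168 members. The GC box was in 70.9% of them, in 68.6% of 8857 genes with an entry that met the same minimum level and in 42.3% of all 27305 promoters. It was in 75.9% of 29 members that rose in both lines and 88.2% of 17 that fell in both. The ETS core was in 9.7% of members against 17.1% of genes that met that minimum and 8.82% of all, and the E-box in 11.9% against 9.27% and 6.49%. The NRF2 core was in 15.7% of members against 12.2% and 11.0%, AP-1 in 5.97% against 3.84% and 6.6%, ATF4 in 1.49% against 1.38% and 3.19%, and HNF4 in 5.22% against 2.29% and 2.94%. These shares describe letters in a window and say nothing of binding.

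The class counts that follow stand beside 19.3% of all genes higher and 15.6% lower in LS411N, and 33.5% and 31.0% in LS411N-BR, or 9.96% and 3.59%, and 56.1% and 11.1%, with TPM as deposited. Those for LS411N-BR include the 4 members that met the level for a test through 1 group alone. Of the amino acid transporters, in LS411N 8 rose and 6 fell of 26 tested, against 6 and 0 with TPM as deposited, with a median log2 fold change of 0.08. In LS411N-BR 12 rose and 9 fell of 27 tested, against 17 and 4 with TPM as deposited, with a median of 0.08. Besides SLC6A20, the glutamate carrier SLC1A1 (EAAT3) rose from 5.50 ± 0.212 to 8.17 ± 0.310 rescaled TPM in LS411N and from 10.4 ± 0.216 to 17.9 ± 0.491 in LS411N-BR (0.50 and 0.72). SLC7A5, the large neutral amino acid exchanger that supplies leucine, rose from 117 ± 15.1 to 145 ± 7.25 and from 121 ± 1.85 to 141 ± 6.09 (adjusted p = 0.024 and 0.00041). In LS411N that rise had an adjusted p of 0.058 with TPM as deposited and 0.085 with no filter on low values. Leaving out replicate 1 or 2 of the LS411N libraries with doxycycline gave 0.078 and 0.087.

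The heavy chain SLC3A2 did not pass the test on rescaled values in either line, and with TPM as deposited it was called higher in LS411N-BR (0.26, adjusted p = 0.00011). It stood at 85.1 ± 2.08 and 85.6 ± 2.47 in LS411N and 56.7 ± 0.690 and 59.1 ± 1.79 in LS411N-BR. SLC7A11 (xCT), the light chain that imports cystine for glutathione synthesis, fell in both lines on the rescaled values. It had 46.2, 53.3 and 46.5 and then 38.1, 41.1 and 42.2 in LS411N, and 21.6, 21.4 and 22.4 and then 10.5, 11.3 and 11.8 in LS411N-BR. The groups did not overlap in either line. The change in LS411N was -0.26 ± 0.07 SE, adjusted p = 0.018, a call lost with TPM as deposited (adjusted p = 0.46), with no filter on low values (0.054), without replicate 2 of LS411N without doxycycline (0.052) and without replicate 1 or 2 of LS411N with it (0.068 and 0.053). In LS411N-BR it was -0.90 ± 0.04 SE, adjusted p = 1.4e-07. An antisense gene, SLC7A11-AS1, overlaps it, and the sources used here do not say whether counting used strand.

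SLC43A1 (LAT3), a carrier of leucine and other large neutral amino acids, had 24.7, 26.4 and 24.1 and then 20.5, 18.7 and 19.1 rescaled TPM in LS411N, and 21.9, 20.9 and 21.1 and then 11.6, 12.3 and 11.4 in LS411N-BR. Both falls left the groups separate (-0.35 and -0.81), though with TPM as deposited the adjusted p in LS411N was 0.20. SLC1A4 (ASCT1), a serine and alanine exchanger, had 19.5 ± 0.563 and then 12.7 ± 0.611 in LS411N-BR, groups that were apart (-0.58 ± 0.04 SE, adjusted p = 1.6e-06), while in LS411N it had 25.6 ± 1.27 and 25.6 ± 0.522, groups that overlapped. The glutamine carriers SLC1A5 and SLC38A2 were called lower in LS411N-BR, from 80.6 ± 1.47 to 70.6 ± 1.70 and from 90.2 ± 1.48 to 76.5 ± 3.23, but not with TPM as deposited (adjusted p = 0.88 and 0.62). In LS411N they had log2 fold changes of 0.05 and 0.07 with adjusted p = 0.62 and 0.50. SLC7A8 (LAT2), a basolateral light chain, fell from 6.88 ± 0.899 to 4.97 ± 0.352 and from 5.17 ± 0.375 to 4.33 ± 0.331, and SLC38A10, another amino acid carrier, from 14.4 ± 0.513 to 12.5 ± 0.181 and from 9.12 ± 0.181 to 7.09 ± 0.337. On the deposited scale SLC7A8 had adjusted p = 0.088 and 0.58 in LS411N and LS411N-BR, and SLC38A10 0.63 and 0.052. The SLC38A10 fall in LS411N also had adjusted p = 0.065 without replicate 2 of LS411N without doxycycline, and 0.053 and 0.061 when replicate 2 or 3 of the treated LS411N libraries was left out.

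The ion class was dominated by SLC12A2. In LS411N 5 rose and 5 fell of 19 tested, against 4 and 1 with TPM as deposited, and in LS411N-BR 9 rose and 5 fell of 19 tested, against 11 and 2 with TPM as deposited, with median log2 fold changes of -0.01 and 0.06. The summed level of the 20 ion genes went from 368 ± 11.7 to 278 ± 8.37 rescaled TPM in LS411N and from 393 ± 9.76 to 279 ± 3.24 in LS411N-BR. Without SLC12A2 the sum of the other 19 went the other way, from 132 ± 2.78 to 147 ± 2.46 and from 139 ± 1.48 to 172 ± 2.05. SLC20A2 (PiT2), a phosphate carrier, had 12.6, 12.6 and 13.5 and then 18.4, 19.4 and 17.6 in LS411N, and 11.1, 11.0 and 10.9 and then 17.6, 17.5 and 18.6 in LS411N-BR. Its groups were separate in both lines (0.49 and 0.66), with SMIM19 annotated on the opposite strand. The related SLC20A1 (PiT1) was called higher in LS411N-BR, from 24.9 ± 0.166 to 26.8 ± 0.574, a call that was lost with the spread taken from all 12 libraries (adjusted p = 0.091), and had -0.09 in LS411N (adjusted p = 0.31).

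SLC26A3 (DRA), the chloride and bicarbonate exchanger of the mature colonocyte, was low throughout. In LS411N-BR it had 0.427, 0.655 and 0.577 rescaled TPM without and 2.81, 2.16 and 2.18 with doxycycline, groups that did not overlap. It met the level for the test only through the libraries of LS411N-BR with doxycycline, so no test of its rise is given. In LS411N it had 0.0252, 0.0234 and 0 and 0.101, 0.0852 and 0.131, under the level for a test of that line. The apical sodium and proton exchanger SLC9A3 (NHE3) fell in LS411N, from 3.38 ± 0.407 to 2.41 ± 0.0860 (-0.36 ± 0.08 SE, adjusted p = 0.0081, 0.11 with TPM as deposited), and had 2.90 ± 0.186 and 2.96 ± 0.0926 in LS411N-BR, groups that overlapped, though there the deposited scale gave a call (0.17, adjusted p = 0.030). SLC12A7 (KCC4), which exports potassium with chloride, fell from 10.3 ± 0.428 to 7.70 ± 0.241 and from 7.98 ± 0.497 to 6.86 ± 0.209, but its adjusted p with TPM as deposited was 0.14 and 0.88.

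Of the nucleotide class, in LS411N 1 rose and 1 fell of 9 tested, against 1 and 0 with TPM as deposited, and in LS411N-BR 5 rose and 3 fell of 9 tested, against 6 and 1 with TPM as deposited. SLC29A3 (ENT3), the nucleoside carrier of lysosomes, rose from 3.71 ± 0.200 to 5.33 ± 0.222 rescaled TPM in LS411N and from 4.29 ± 0.392 to 6.25 ± 0.191 in LS411N-BR (0.43 and 0.46). At the plasma membrane, SLC29A2 (ENT2) rose in LS411N-BR, from 8.49 ± 0.135 to 11.3 ± 0.437 (0.37 ± 0.04 SE, adjusted p = 1.6e-05), with overlapping groups in LS411N. SLC28A3 (CNT3), which takes up nucleosides with sodium, fell in both lines. It had 7.50, 8.02 and 7.56 and then 5.60, 6.45 and 6.35 in LS411N, and 3.26, 3.29 and 2.86 and then 1.98, 1.95 and 2.05 in LS411N-BR. All libraries with doxycycline lay under all without it (-0.29 ± 0.06 SE, adjusted p = 0.0087, and -0.46 ± 0.05 SE, adjusted p = 4.4e-05), though the LS411N call was lost with TPM as deposited (0.32). SLC29A1 (ENT1) was called lower in LS411N-BR, from 41.7 ± 1.43 to 37.4 ± 1.90, but had 0.04 on the deposited log2 scale (adjusted p = 0.54), and was not called with the spread from all 12 libraries (0.23). In LS411N it was not called (-0.21 ± 0.12 SE, adjusted p = 0.22), but without replicate 3 of LS411N without doxycycline, at 17.7 against 25.3 and 24.4, it was called lower (-0.36, adjusted p = 0.0013).

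The metal class holds carriers of iron and zinc. In LS411N 6 rose and 2 fell of 24 tested, against 3 and 0 with TPM as deposited, and in LS411N-BR 13 rose and 6 fell of 26 tested, against 19 and 1 with TPM as deposited, with medians of 0.12 and 0.13. SLC40A1, ferroportin, the only known cellular iron exporter, had 7.02, 7.65 and 7.26 rescaled TPM in LS411N-BR without doxycycline and 17.6, 17.0 and 16.9 with it. In LS411N it had 4.25, 4.29 and 4.81 and 4.77, 5.15 and 5.97. Its groups were far apart in LS411N-BR (1.13 ± 0.04 SE, adjusted p = 1.6e-08) and overlapped in LS411N (0.21 ± 0.08 SE, adjusted p = 0.079). The smaller LS411N rise was called when replicate 3 of the untreated LS411N libraries was left out (adjusted p = 0.019), with the spread from all 12 libraries (0.019) and with the replicate number as a block (0.035). Ferroportin is annotated on chromosome 2 from 189560579 to 189583758, minus strand. The iron importer SLC11A2 (DMT1) had 17.1 ± 0.121 and 16.8 ± 0.125 in LS411N-BR and did not pass the test, while with TPM as deposited it was called higher there (0.16, adjusted p = 0.023).

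Among zinc carriers, SLC39A6 (ZIP6), an importer, rose from 25.4 ± 1.40 to 33.6 ± 1.61 in LS411N and from 26.9 ± 0.254 to 34.7 ± 0.930 in LS411N-BR. The exporter SLC30A1 (ZnT1) rose from 13.9 ± 0.778 to 17.4 ± 1.27 and from 25.7 ± 1.06 to 30.4 ± 1.09, the former with adjusted p = 0.069 on the deposited scale. SLC30A7 (ZnT7), which loads zinc into the Golgi apparatus, had 8.45, 8.40 and 8.65 and then 5.99, 6.42 and 6.41 in LS411N, and 18.7, 18.0 and 19.3 and then 13.9, 12.9 and 14.0 in LS411N-BR. It fell in both (-0.39 and -0.43, with 0.12 in LS411N on the deposited scale). SLC30A9 and SLC39A7 (ZIP7), which releases zinc from the endoplasmic reticulum, were called lower in LS411N-BR, from 64.5 ± 1.40 to 54.5 ± 1.52 and from 7.62 ± 0.212 to 6.52 ± 0.0988, but not with TPM as deposited (adjusted p = 0.60 and 0.81). The gut zinc importer SLC39A4 (ZIP4) did not pass in either line, at 4.45 ± 0.847 and 5.05 ± 0.518 in LS411N and 6.84 ± 0.216 and 6.46 ± 0.238 in LS411N-BR.

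The bile acid class has 3 members of the SLC10 family, none of which is an established bile acid carrier of the gut. SLC10A7, linked to calcium control, rose from 1.77 ± 0.154 to 2.69 ± 0.0680 rescaled TPM in LS411N and from 3.92 ± 0.115 to 5.33 ± 0.268 in LS411N-BR (0.42 and 0.36). SLC10A3 rose in LS411N-BR, from 8.44 ± 0.346 to 11.7 ± 0.332 (0.43 ± 0.04 SE, adjusted p = 1.0e-05), and had 0.18 in LS411N (adjusted p = 0.078), where it was called without replicate 1 of LS411N without doxycycline (0.039), with the block (0.040) and with the spread from all 12 libraries (0.022). SLC10A5 had -0.13 in LS411N (adjusted p = 0.43) and was too low for the test in LS411N-BR. SLC51B, the beta subunit of the basolateral bile acid exporter, falls outside the symbol rule. It had 0.122, 0.170 and 0.107 and then 0.559, 0.464 and 0.474 rescaled TPM in LS411N, and 0.621, 0.404 and 0.446 and then 4.48, 3.45 and 3.87 in LS411N-BR. The groups did not overlap in either line, but only LS411N-BR with doxycycline met the level for a test, so none is given.

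Sugar transporters split. In LS411N 5 rose and 3 fell of 13 tested, against 2 and 2 with TPM as deposited, and in LS411N-BR 6 rose and 5 fell of 14 tested, against 7 and 3 with TPM as deposited, with medians of 0.07 and 0.01. SLC2A1 (GLUT1), the basal glucose carrier, rose from 16.6 ± 0.508 to 20.8 ± 0.171 in LS411N and from 23.1 ± 0.835 to 29.4 ± 0.661 in LS411N-BR (0.31 ± 0.05 SE, adjusted p = 0.0013, and 0.34 ± 0.03 SE, adjusted p = 2.3e-05), with 0.062 in LS411N on the deposited scale. SLC2A12 (GLUT12), singled out after its values were seen, fell from 3.22 ± 0.0284 to 1.60 ± 0.140 and from 1.69 ± 0.109 to 1.03 ± 0.0718 (-0.70 and -0.40). SLC37A1, a sugar phosphate exchanger, rose from 4.90 ± 0.480 to 6.82 ± 0.367 and from 6.81 ± 0.434 to 8.44 ± 0.324. SLC50A1, a glucose carrier of the SWEET family, rose as well (0.25 ± 0.05 SE, adjusted p = 0.0036, and 0.13 ± 0.03 SE, adjusted p = 0.0039), with 0.14 in LS411N on the deposited scale.

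Of the 35 mitochondrial carriers, in LS411N 9 rose and 4 fell of 34 tested, against 2 and 0 with TPM as deposited, and in LS411N-BR 18 rose and 8 fell of 35 tested, against 27 and 2 with TPM as deposited. SLC25A4, the exchanger of ADP and ATP typical of muscle and heart, had 11.1, 10.9 and 10.5 and then 15.0, 16.6 and 15.9 in LS411N, and 6.76, 6.37 and 6.74 and then 9.95, 9.14 and 9.32 in LS411N-BR. Its groups were separate (0.51 and 0.46), while SLC25A5 did not pass on rescaled values in either line (adjusted p = 0.21 and 0.20). SLC25A5 was called higher in LS411N-BR with TPM as deposited (0.27, adjusted p = 3.3e-05) and in LS411N without replicate 3 of the group without doxycycline (0.16, adjusted p = 0.012). SLC25A40, a glutathione importer of mitochondria, had 21.9, 21.9 and 22.8 and then 14.9, 16.2 and 17.4 in LS411N, and 33.7, 33.7 and 35.4 and then 20.6, 22.7 and 22.5 in LS411N-BR. It was lower in all libraries with doxycycline (-0.44 and -0.62, 0.076 in LS411N on the deposited scale), and DBF4 overlaps it on the opposite strand. The citrate exporter SLC25A1, which supplies carbon for fatty acid synthesis, fell from 45.5 ± 0.912 to 38.5 ± 2.62 and from 34.0 ± 0.0870 to 26.8 ± 1.16, the former with adjusted p = 0.52 on the deposited scale and 0.057 without replicate 3 of LS411N with doxycycline.

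In the carboxylate class, in LS411N 4 rose and 0 fell of 6 tested, against 2 and 0 with TPM as deposited, and in LS411N-BR 3 rose and 2 fell of 6 tested, against 3 and 0 with TPM as deposited. SLC16A5 (MCT6) rose from 3.86 ± 0.377 to 5.89 ± 0.294 and from 3.69 ± 0.126 to 6.28 ± 0.192 (0.51 and 0.63), and the lactate carrier SLC16A1 (MCT1) from 52.7 ± 1.22 to 63.0 ± 2.33 and from 75.3 ± 0.648 to 88.1 ± 1.76, with 0.14 in LS411N on the deposited scale. SLC16A13 was called lower in LS411N-BR, from 9.95 ± 0.234 to 8.43 ± 0.723, but with adjusted p = 0.65 on the deposited scale and 0.23 with the spread from all 12 libraries. In LS411N one control library of SLC16A13 stood apart, with 9.35, 9.74 and 5.43 rescaled TPM in the 3.

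Lipid and vitamin carriers gave these counts: in LS411N 3 rose and 1 fell of 16 tested, against 0 and 0 with TPM as deposited, and in LS411N-BR 8 rose and 3 fell of 17 tested, against 12 and 3 with TPM as deposited. The thiamine carrier SLC19A2 rose from 6.28 ± 0.751 to 8.17 ± 0.483 and from 10.3 ± 0.127 to 13.7 ± 0.243, and the fatty acid transport protein SLC27A4 from 8.17 ± 1.25 to 10.3 ± 0.716 and from 14.1 ± 0.493 to 19.7 ± 0.550. Neither call in LS411N held with every library left out in turn, though a test with fewer libraries also has less power. Leaving out replicate 2 of the treated LS411N libraries gave adjusted p = 0.055 and 0.14, and leaving out replicate 3 gave 0.051 and 0.074. SLC27A4 also had 0.078 when replicate 1 was left out and 0.12 with no filter, and on the deposited scale the pair had 0.050 and 0.051. The related SLC27A3 fell from 1.58 ± 0.163 to 1.07 ± 0.170 and from 1.53 ± 0.0653 to 0.901 ± 0.0175, and its call in LS411N was lost without replicate 1 or 2 of either LS411N group (adjusted p = 0.071 to 0.097), with no filter (0.051) and on the deposited scale (0.12). SLC33A1, which carries acetyl-CoA into the endoplasmic reticulum, fell in LS411N-BR, from 15.6 ± 0.469 to 11.8 ± 0.124 (-0.37 ± 0.03 SE, adjusted p = 8.0e-06). SLC44A2 did not pass on rescaled values in either line, at 27.5 ± 0.451 and 26.7 ± 0.901 in LS411N-BR, though with TPM as deposited it was called higher there (0.15, adjusted p = 0.027).

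Of the organic ion carriers, in LS411N 1 rose and 0 fell of 5 tested, against 1 and 0 with TPM as deposited, and in LS411N-BR 2 rose and 1 fell of 6 tested, against 4 and 1 with TPM as deposited. SLC22A3 (OCT3), an organic cation carrier, rose in both (0.36 ± 0.07 SE, adjusted p = 0.0036, and 0.20 ± 0.04 SE, adjusted p = 0.00099). The carnitine carrier SLC22A5 rose in LS411N-BR, from 6.34 ± 0.299 to 8.52 ± 0.202, and had 0.15 in LS411N (adjusted p = 0.11, and 0.037 with the spread from all 12 libraries). SLC29A4 (PMAT), a carrier of monoamines, had 1.36 ± 0.220 without and 0.840 ± 0.0588 with doxycycline in LS411N-BR, and was too low for the test in LS411N. In LS411N-BR the libraries without doxycycline carried it past the level for a test, so none is given. SLC29A4 is still the 1 fall counted above for LS411N-BR on each scale. SLC12A9, of the class with no settled substrate, fell from 9.16 ± 0.930 to 7.12 ± 0.254 and from 8.20 ± 0.312 to 6.38 ± 0.196, with 0.24 and 0.057 on the deposited scale.

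Whether doxycycline acted differently in the 2 lines was tested over all 12 libraries with an interaction term. The effect in LS411N-BR lay above that in LS411N for 10 of the 168 members and below it for 13, 5.95% and 7.74%, against 4.33% and 5.81% of all 11674 genes. The 10 include SLC26A3, which met the level for this test only through LS411N-BR with doxycycline, where it is high. Leaving out 1 library at a time gave 4 to 21 above and 6 to 21 below, and every library but replicate 2 of LS411N without doxycycline moved at least 1 of these counts by more than 1.5-fold. The highest counts, 21 and 21, came without replicate 3 of LS411N without doxycycline, and the lowest above came without replicate 3 of LS411N-BR with it. On the deposited scale 4 lay above, SLC26A3, SLC40A1, SLC6A6 and SLC17A5, and 1 below, SLC7A11 (background 1.39% and 0.728%, or 2.12% in either direction).

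**Figure D3:**
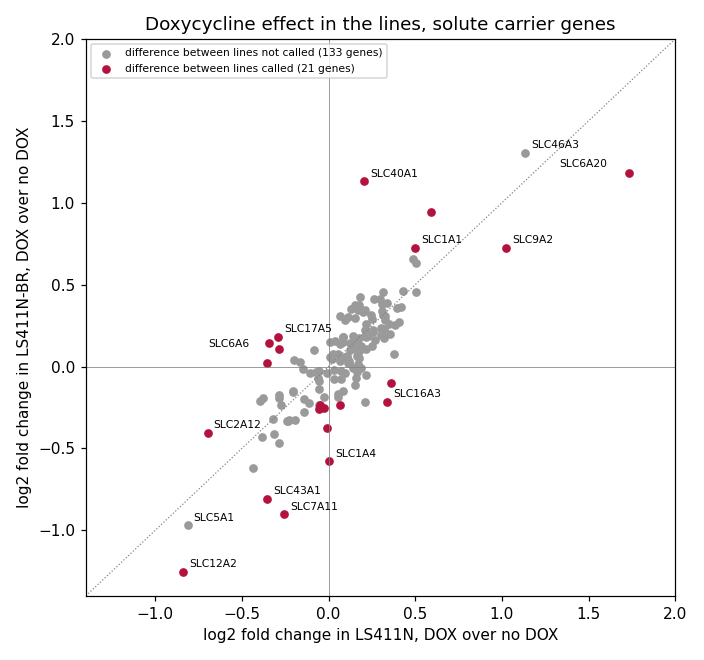
Log2 fold change with doxycycline in LS411N (x axis) against that in LS411N-BR (y axis), on the log2(rescaled TPM + 1) scale, for the 154 solute carrier genes tested in both. Each point is 1 gene, red where the difference between the lines was called, and the dotted line marks equal effects. SLC40A1 (0.21 and 1.13) lies above the line and SLC6A20 (1.73 and 1.18) and SLC7A11 (-0.26 and -0.90) below it.

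SLC40A1 had a difference of 0.92 ± 0.09 SE, adjusted p = 6.2e-05. SLC26A3 had 1.00, but it met the level only through LS411N-BR with doxycycline, and its LS411N values lie far under the 1 TPM added before the log. As ratios of mean rescaled TPM it was 6.52-fold higher with doxycycline in LS411N and 4.32-fold in LS411N-BR, the opposite order. SLC6A6 (TauT), which imports taurine, had 6.78, 7.10 and 5.57 and then 4.69, 5.26 and 4.72 rescaled TPM in LS411N, and 5.79, 5.98 and 5.87 and then 6.89, 6.48 and 6.47 in LS411N-BR. SLC17A5 (sialin), which exports sialic acid from lysosomes, had 20.8, 18.6 and 19.3 and then 15.0, 15.9 and 16.6, and 32.1, 31.7 and 34.3 and then 38.3, 35.9 and 37.4. For both genes the libraries with doxycycline lay under those without it in LS411N and above them in LS411N-BR, with differences of 0.49 ± 0.10 SE, adjusted p = 0.0073 and 0.47 ± 0.07 SE, adjusted p = 0.0011. The SLC6A6 fall in LS411N was not called on the deposited scale (0.17) or without replicate 1 or 3 of LS411N with doxycycline (0.057 and 0.061) or with no filter on low values (0.060), and its rise in LS411N-BR not with the spread from all 12 libraries (0.092). The SLC17A5 fall in LS411N had 0.35 on the deposited scale. SLC16A10 (TAT1), a carrier of aromatic amino acids, had 1.84 ± 0.107 and 1.33 ± 0.161 in LS411N and 3.41 ± 0.196 and 3.76 ± 0.400 in LS411N-BR (difference 0.40 ± 0.10 SE, adjusted p = 0.026). That call was lost under 9 of 20 other settings, with 0.065 on the deposited scale. Its fall in LS411N was lost on that scale (0.19) and without replicate 1 or 2 of LS411N without doxycycline or 1 or 3 with it (0.053 to 0.082), and a rise in LS411N-BR was called on that scale (0.00047) and without replicate 2 of LS411N-BR with doxycycline (0.016).

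Downward, SLC7A11 and SLC1A4 differed by -0.64 ± 0.08 SE, adjusted p = 0.00041 and -0.58 ± 0.06 SE, adjusted p = 0.00013, and the second had 0.10 on the deposited scale. SLC16A3 (MCT4), which exports lactate from glycolytic cells, had 6.86, 5.66 and 5.39 and then 7.33, 8.25 and 7.79 in LS411N, and 3.68, 2.96 and 3.31 and then 2.51, 2.98 and 2.64 in LS411N-BR. It was higher with doxycycline in all LS411N libraries, and its groups overlapped in LS411N-BR (difference -0.55 ± 0.12 SE, adjusted p = 0.0098, 0.066 on the deposited scale). Its fall in LS411N-BR had 0.44 on the deposited scale and 0.054 to 0.076 without replicate 1 of LS411N-BR without doxycycline or replicate 1 or 3 with it, and 0.085 with no filter on low values, and its rise in LS411N 0.056 with no filter and 0.064 and 0.051 without replicates 2 and 3 of LS411N with doxycycline. For SLC6A20 the difference was -0.55 ± 0.10 SE, adjusted p = 0.0041, and on the deposited scale it was not called (0.33). SLC45A3 (prostein) had 1.67 ± 0.287 and 2.42 ± 0.328 in LS411N and 1.55 ± 0.181 and 1.37 ± 0.149 in LS411N-BR (difference -0.47 ± 0.13 SE, adjusted p = 0.040), a call lost under 11 of 20 other settings. Its rise in LS411N was lost without replicate 2 or 3 of LS411N with doxycycline (0.099 and 0.069) and with no filter (0.079). SLC12A2 also fell further in LS411N-BR (-0.41 ± 0.08 SE, adjusted p = 0.0041, 0.49 on the deposited scale), as did SLC43A1 (-0.45 ± 0.07 SE, adjusted p = 0.00088, 0.28).

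By class, the difference was called for 8 of 28 amino acid, 5 of 20 ion, 4 of 14 sugar, 3 of 26 metal, 1 of 17 lipid and vitamin, 1 of 9 nucleotide and 1 of 6 carboxylate genes, and for none of the 35 mitochondrial, 7 organic ion, 3 bile acid and 3 other genes. The ion count includes SLC26A3, which met the level only through LS411N-BR with doxycycline. The share of all genes called was 10.1%. With TPM as deposited it was 2.12%, and 2 amino acid genes and 1 each of the ion, sugar and metal genes were called.

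**Figure D4:**
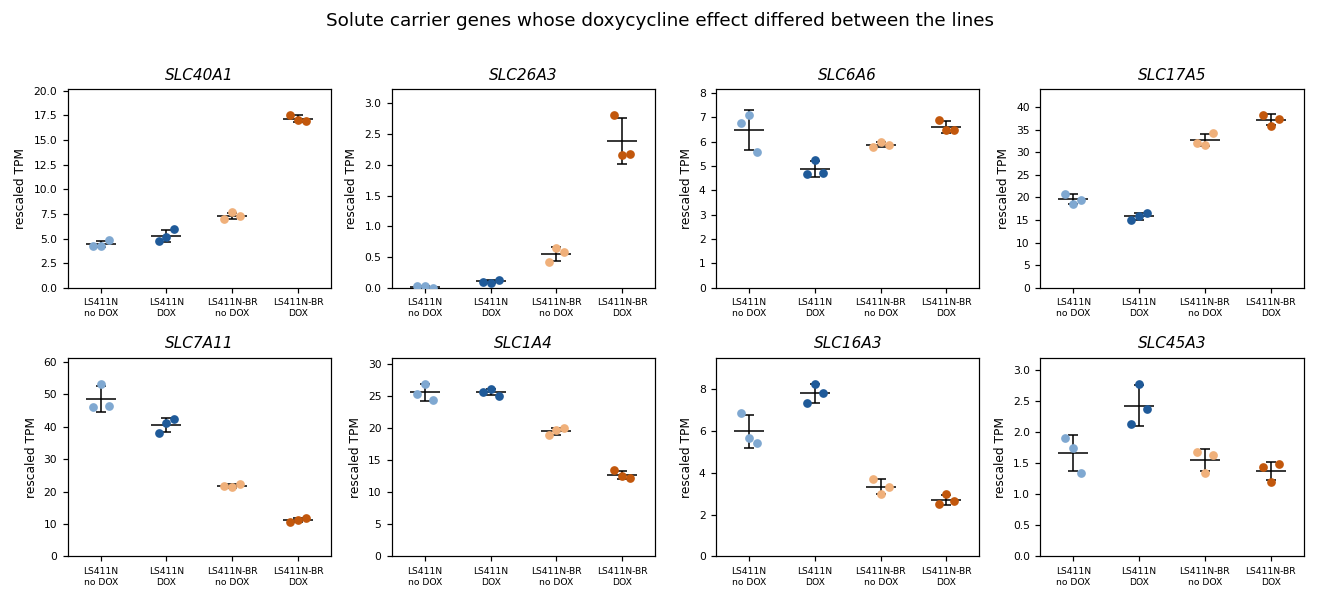
Rescaled TPM (y axis, from 0) in the 4 groups (x axis) of 8 solute carrier genes whose doxycycline effect was called different between the lines. SLC26A3 met the level for that test only through LS411N-BR with doxycycline, and its ratio of means was larger in LS411N (6.52 against 4.32), where its values lie far under 1 rescaled TPM. Each point is 1 library, and the bar and whiskers are the mean ± SD of 3. On the log2(rescaled TPM + 1) scale the effect in LS411N-BR lies above that in LS411N in the top row, as for SLC40A1 (difference 0.92 on the log2 scale), and in the bottom row below it, as for SLC7A11 (-0.64).

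Without doxycycline, the members' levels in the lines are set side by side with no test, because the deposited TPM of each line were scaled over its own gene list. The median ratio of LS411N-BR to LS411N was 1.13 over the members and 1.03 over all genes that met the same minimum level. At 1.5-fold or more, 47 members (28.0%) were higher and 15 (8.93%) lower in LS411N-BR, against 15.5% and 14.4% of all genes. Among members with a mean of at least 5 rescaled TPM in the higher line, the largest ratios were those of SLC6A20 (3.70), SLC46A3 (3.59), SLC16A9 (3.03), SLC35A3 (2.70) and SLC16A14 (2.67). Members under that level, SLC26A3 among them, were not ranked. SLC16A9, a carnitine carrier, had 3.10, 2.70 and 3.17 rescaled TPM in LS411N and 8.74, 9.14 and 9.27 in LS411N-BR. SLC35A3, which carries UDP-N-acetylglucosamine into the Golgi apparatus, had 10.5, 10.6 and 13.3 and 30.6, 30.9 and 31.5. The libraries of the lines were far apart for both genes. With doxycycline neither was called on rescaled values, though on the deposited scale both were called higher in LS411N-BR (0.0029 and 0.042), and SLC35A3 was called higher in LS411N without replicate 3 of LS411N without doxycycline (0.0037), with the block (0.019) and with the spread from all 12 libraries (0.036). SLC16A14 had 5.13 ± 0.209 and 13.7 ± 0.612, and it was called higher with doxycycline in each line (0.27 and 0.16), with 0.11 in LS411N on the deposited scale.

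At the same minimum of 5 rescaled TPM in the higher line, the lowest ratios were those of SLC28A3 (0.408 of the LS411N level), SLC7A11 (0.448), SLC25A25 (0.492), SLC16A3 (0.555) and SLC39A7 (0.601). SLC25A25, an exchanger of ATP-magnesium and phosphate in mitochondria, had 7.51, 7.52 and 6.72 and 3.57, 3.83 and 3.30, and SLC39A7 12.8, 12.3 and 12.9 and 7.72, 7.77 and 7.38. No library of one line reached the other for either gene, and genes on the opposite strand overlap both (NAIF1 and SLC25A25-AS1, and RXRB). SLC26A9, a chloride channel of epithelia singled out after its values were seen, had 1.82, 1.90 and 2.04 in LS411N and 0.0134, 0.00363 and 0.0281 in LS411N-BR, close to 0. The summed level of all 168 members was 3472 ± 29.9 rescaled TPM in LS411N and 4396 ± 53.7 in LS411N-BR without doxycycline. SLC25A5 alone supplied 577 ± 40.8 and 1216 ± 46.2 of these.

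**Figure D5:**
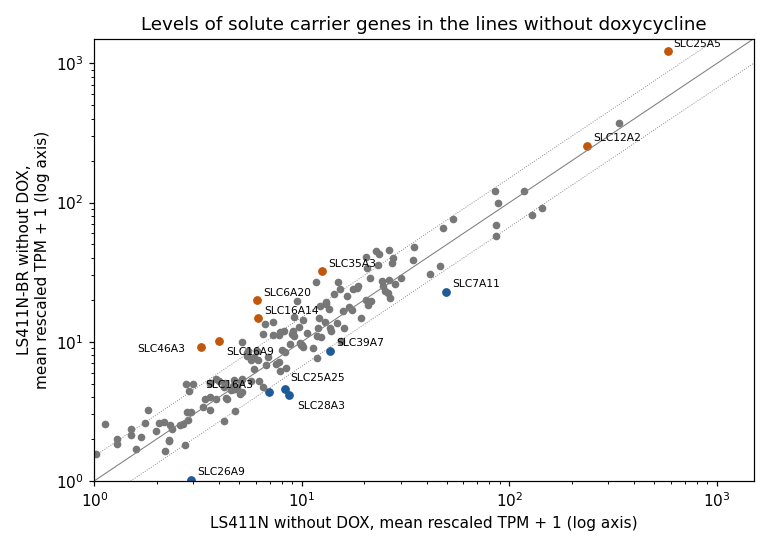
Mean rescaled TPM + 1 of the 168 solute carrier genes without doxycycline in LS411N (x axis, log scale) and LS411N-BR (y axis, log scale), 3 libraries each. Each point is 1 gene, the solid line marks equal levels and the dotted lines a 1.5-fold difference, and named genes are orange where higher and blue where lower in LS411N-BR. SLC6A20 and SLC35A3 lie above the upper line and SLC7A11 and SLC28A3 below the lower one.

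Genes that work with the transporters were followed in lists, whose counts stand beside the same shares of all genes (19.3% higher and 15.6% lower in LS411N, 33.5% and 31.0% in LS411N-BR, and as deposited 9.96% and 3.59%, and 56.1% and 11.1%). Of transporter partner proteins, in LS411N 10 rose and 2 fell of 20 tested, against 6 and 2 with TPM as deposited, and in LS411N-BR 13 rose and 7 fell of 21 tested, against 14 and 1 with TPM as deposited. Carbonic anhydrase CA2, which supplies bicarbonate and protons to exchangers, rose from 29.5 ± 2.66 to 53.7 ± 3.61 and from 12.6 ± 1.02 to 24.1 ± 0.600 rescaled TPM. EZR (ezrin), which anchors apical proteins, rose from 125 ± 2.08 to 178 ± 4.82 and from 182 ± 2.51 to 317 ± 8.65. Of 22 genes of metal binding and sensing, in LS411N 7 rose and 0 fell of 18 tested, against 3 and 0 with TPM as deposited, and in LS411N-BR 13 rose and 1 fell of 18 tested, against 17 and 0 with TPM as deposited. HEPH, the ferroxidase that works with ferroportin, rose in both lines, from 9.14 ± 0.995 to 14.4 ± 0.449 and from 29.2 ± 0.842 to 36.3 ± 1.02. The heme oxygenase HMOX1 rose in LS411N-BR (0.76 ± 0.05 SE, adjusted p = 1.6e-06), and in LS411N met the level for a test only with doxycycline. It is still among the 7 rises counted for LS411N, and among the 3 with TPM as deposited.

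Of the amino acid response and mTORC1 sensing genes, in LS411N 4 rose and 1 fell of 17 tested, against 3 and 1 with TPM as deposited, and in LS411N-BR 5 rose and 7 fell of 16 tested, against 8 and 5 with TPM as deposited. SESN1, a leucine-responsive brake on mTORC1, fell from 5.62 ± 0.539 to 3.11 ± 0.303 and from 8.94 ± 0.305 to 4.89 ± 0.0710, and the serine synthesis enzyme PSAT1 fell in LS411N-BR, from 241 ± 9.68 to 159 ± 5.66, and had 221 ± 10.5 and 225 ± 5.69 in LS411N. Of the intestinal transcription factors, in LS411N 6 rose and 2 fell of 17 tested, against 4 and 1 with TPM as deposited, and in LS411N-BR 10 rose and 5 fell of 18 tested, against 13 and 2 with TPM as deposited. KLF4, a factor of differentiated epithelium, rose from 23.5 ± 1.20 to 53.2 ± 1.63 and from 28.6 ± 0.729 to 74.4 ± 0.457, and EPAS1 (HIF2-alpha), which acts on iron genes of the gut, from 8.09 ± 0.373 to 15.8 ± 0.135 and from 13.7 ± 0.197 to 26.8 ± 0.588. NFE2L2 fell, from 52.7 ± 1.34 to 37.7 ± 0.609 and from 73.6 ± 0.847 to 43.9 ± 1.25, with adjusted p = 0.054 in LS411N on the deposited scale. Of the bile acid handling genes, in LS411N 4 rose and 2 fell of 8 tested, against 2 and 2 with TPM as deposited, and in LS411N-BR 4 rose and 3 fell of 8 tested, against 5 and 3 with TPM as deposited. CYP3A5, a bile acid and drug oxidase, rose from 6.59 ± 0.151 to 17.0 ± 0.196 and from 10.8 ± 0.594 to 26.2 ± 1.03.

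Of the nucleoside and sugar kinase list, in LS411N 5 rose and 3 fell of 19 tested, against 3 and 0 with TPM as deposited, and in LS411N-BR 8 rose and 10 fell of 19 tested, against 8 and 5 with TPM as deposited. TXNIP, which limits glucose uptake, rose from 40.2 ± 1.70 to 66.6 ± 3.19 and from 48.9 ± 1.82 to 58.9 ± 3.05, and cytidine deaminase CDA from 2.35 ± 0.946 to 5.24 ± 0.275 and from 7.64 ± 0.302 to 13.1 ± 0.493. Of transporters related to the solute carriers but outside the symbol rule, in LS411N 9 rose and 7 fell of 35 tested, against 8 and 2 with TPM as deposited, and in LS411N-BR 21 rose and 8 fell of 38 tested, against 28 and 3 with TPM as deposited. The rises in LS411N-BR on both scales include SLC51B, SLC35E4 and FLVCR2. These met the level for a test only through LS411N-BR with doxycycline and so had to differ. SFXN3, a sideroflexin of mitochondria, rose from 5.84 ± 0.502 to 10.8 ± 0.467 and from 11.0 ± 0.440 to 20.3 ± 0.749, while the related serine carrier SFXN1 fell from 39.5 ± 2.37 to 26.3 ± 1.72 and from 51.8 ± 1.43 to 36.9 ± 1.17. Of the 168 members, 61 have an annotated gene on the opposite strand that is also listed, and their values may hold reads of it.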

How the data were processed

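RNA of the 12 cultures was sequenced from TruSeq Stranded mRNA libraries, per the labels' protocols. The authors deposited TPM, 1 table per line, and each library sums to 1000000. LS411N has 25673 genes listed and LS411N-BR 25540, so the lines are scaled over different genes. STAR, DESeq2 and GRCh38 are named, without roles, per the submitters' processing notes. Which program and annotation gave the TPM is not stated in these sources. Read totals are absent from the tables used, the depth is unknown, and no counting interval is given.

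The TPM of genes in both tables were divided by median-of-ratios factors (0.853 to 1.18, over 14233 genes). The tests, with limma 3.58.1 (R 4.3.3), took log2(rescaled TPM + 1) computed from the deposited TPM and let the prior spread follow the mean level. This scale understates changes of low genes. Each line was fitted alone over genes with at least 1 deposited TPM in at least 3 of its 6 libraries, which 158 members met in LS411N and 164 in LS411N-BR. The interaction used all 12 libraries. Calls are at a Benjamini-Hochberg adjusted p under 0.05 over all genes tested, and errors of fold changes are SE. The 3 comparisons share libraries.

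Members, classes, gene lists, tests and motifs were chosen with earlier results of these data known, and the motifs after these results. Named per line were the 10 largest called rises and falls with separate groups and at least 5 rescaled TPM in the higher group, the strongest call per class and direction, the highest member per class, the 5 largest called differences and line ratios in each direction, up to 3 called genes per list, the 2 genes on each side of the level rule and 24 landmarks, and not every gene so named is described. Line ratios were ranked only among members with a mean of at least 5 rescaled TPM in the higher line without doxycycline. Classes were assigned by hand. Gene positions are from GENCODE 29 and upstream sequences from RefSeq (GRCh38.p14).

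The fits were tested on simulated data, with normal noise of the spread seen between replicates. Known changes were put only into genes whose mean log2 level lay above that of 5 rescaled TPM. The recovered shares thus do not cover lower genes, which many members are. Fewer genes were changed there than were called in the real data, so the share of false calls may differ too. Of 2-fold changes, 96% were recovered in LS411N (11250 genes), 99% in LS411N-BR (11322) and 98% for the difference (11674), of 1.5-fold changes 92%, 98% and 90%, and 5.05%, 4.37% and 6.47% of calls were false. Alternatives were TPM as deposited, scaling within each table, a pseudocount of 0.1, no filter, a filter of 5 TPM, no trend, robust moderation, each library left out, the replicate number as a block, and a spread from all 12 libraries. Some items of the lists and classes are not reported here, though the counts include them where measured.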

Additional observations from a re-analysis of the deposited data

Results flagged for a closer look

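For 10 named solute carriers the doxycycline effect was called different between the lines by the interaction term. The difference, LS411N-BR minus LS411N on the log2(rescaled TPM + 1) scale, was 1.00 for SLC26A3, 0.92 for SLC40A1, 0.49 for SLC6A6, 0.47 for SLC17A5 and 0.40 for SLC16A10. It was -0.64 for SLC7A11, -0.58 for SLC1A4, -0.55 for SLC16A3, -0.55 for SLC6A20 and -0.47 for SLC45A3. Among these 10, the differences of SLC26A3, SLC40A1, SLC6A6, SLC17A5 and SLC7A11 were also called with TPM as deposited. SLC26A3 met the level for the test only through LS411N-BR with doxycycline, and as ratios of mean rescaled TPM its rise was 6.52-fold in LS411N and 4.32-fold in LS411N-BR, the opposite order. Its LS411N values lie far under 1 rescaled TPM, so that order is uncertain.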

How the results depend on the processing

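The counts of calls moved most with the scale and with single libraries. With TPM as deposited, LS411N gave 23 members higher and 3 lower, LS411N-BR 17 lower, and the difference between lines 4 above and 1 below. A filter of 5 TPM, which left 123 members to test, gave 5 above and 13 below, against 10 and 13 of 168. A spread from all 12 libraries gave 67 higher and 30 lower of 158 in LS411N, against 44 and 23. With 1 library left out, counts were 26 to 55 higher and 17 to 29 lower in LS411N, 73 to 78 and 40 to 43 in LS411N-BR, and 4 to 21 above and 6 to 21 below for the difference.

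Some named genes that were not called, or called only on the rescaled values, changed sign. With TPM as deposited the log2 fold change became 0.058 for SLC33A1 and 0.022 for SLC30A9 in LS411N, and in LS411N-BR 0.15 for SLC44A2, 0.045 for SLC29A1, 0.018 for SLC45A3, 0.14 for SLC35A3, 0.011 for SLC1A5, 0.10 for SLC39A4 and 0.16 for SLC11A2. With 1 library left out, the values in LS411N ran from -0.026 to 0.042 for SLC1A4, -0.063 to 0.089 for SLC33A1, -0.030 to 0.34 for SLC16A13, -0.013 to 0.028 for SLC3A2 and -0.034 to 0.13 for SLC1A5, and in LS411N-BR from -0.012 to 0.057 for SLC9A3. The cause of these changes was not tested.

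Replicate numbers did not pair the samples (correlations of deviations 0.024, -0.014 and 0.19 in LS411N and 0.028, -0.0045 and 0.0057 in LS411N-BR), and the labels tie them to nothing shared. With the replicate number as a block, 52 members were higher and 23 lower in LS411N, 76 and 42 in LS411N-BR, and 7 above and 12 below for the difference. Under scaling within each table, no trend and robust moderation, all named genes kept their direction and side of the threshold and total counts stayed within 1.5-fold, though with no trend the difference gave 12 above and 11 below, against 10 and 13. Of the class counts, the falls of organic ion carriers in LS411N numbered 1 with no trend, against 0. Unknown depth limits what low values can show.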
